A study of Mus musculus with 18 samples.

Results

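Bulk RNA-Seq counts were examined for 7 genes whose proteins act downstream of activation-induced cytidine deaminase (AID) in B cells, namely *Ung*, *Apex1*, *Apex2*, *Msh6*, *Exo1*, *Polh*, and *Rev1*. They were chosen by name, for their roles in base excision repair, mismatch repair, and translesion synthesis, with earlier results of these data known, and they are 7 of the 55491 genes in the table. The gene for AID itself is not one of the 7 and is not reported here. The 18 libraries came from female BALB/cJ mice, aged 10 to 12 weeks at collection and with no genetic modification in the labels, that had all been sensitized with 20 μg ovalbumin (OVA) and 1 mg alum i.p. on days 0 and 14. The mice were then treated i.v. on days 28 and 42 with PBS (100 μL), soluble OVA (100 μg), or OVA NPs (2.5 mg of polymer nanoparticles that enclose OVA), and B cells were taken on day 44 from the spleen or from Peyer's patches (PP), the lymphoid follicles of the gut wall. The 6 combinations of tissue and treatment held 3 libraries each. All groups, including PBS controls, were allergic mice, so no comparison with unsensitized mice was possible.

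B cells rewrite their antibody genes in germinal centers. AID converts cytosine to uracil in immunoglobulin DNA, and the way the resulting lesion is handled determines whether a point mutation (somatic hypermutation) or a double-strand break (class switching) follows. UNG removes the uracil, the APEX endonucleases cut at the abasic site that is left, MSH6 with its partner recognizes the U:G mismatch, EXO1 removes the strand around it, and the translesion polymerases REV1 and Pol eta (encoded by *Polh*) copy across the lesion or fill the gap with mistakes. The same enzymes also repair ordinary replication errors and base damage in dividing cells of any type.

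All 7 genes were detected in every library, with 142 to 6235 counts per gene and library, at library totals of 14177253 to 30052297. In the spleen, B cells of mice given either form of OVA held more *Ung*, *Apex1*, *Msh6*, *Exo1*, and *Polh* transcript than those of PBS controls. In PP, soluble OVA was accompanied by higher levels of 6 of the genes (13.5% of all genes tested were higher). For OVA NPs against PBS in PP, 0 of the 7 passed the edgeR test, as did 0% of all genes, and 1 of the 7 had an unadjusted p under 0.05. PP B cells held more *Ung*, *Msh6*, *Polh*, and *Rev1* than splenic B cells under every treatment.

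The isolates had the transcripts of B cells. *Ms4a1* was at 947 CPM (counts scaled to a common library size by TMM) or more in every library, *Cd79a* at 909 CPM or more, and *Cd3e* did not exceed 5.99 CPM. The summed level of 9 germinal center B cell markers was 109 to 187 CPM in splenic libraries of PBS controls, 405 to 622 with soluble OVA, and 395 to 426 with OVA NPs. In PP the same sum was 1457 to 1748, 2636 to 2725, and 1184 to 1755 CPM. Epithelial markers summed to 7.17 to 9.55 CPM in the spleen and 148 to 474, 181 to 684, and 346 to 690.0 CPM in PP with PBS, soluble OVA, and OVA NPs. In the spleen with OVA NPs, 2 of 5 tested plasma cell markers were called higher than in PBS controls, and 0 of the tested T cell, myeloid, NK cell, epithelial, and erythroid markers were called. With soluble OVA in the spleen, 2 of 5 plasma cell markers were higher and *Irf4* was lower (-0.31), and 2 of 7 myeloid markers were lower, *Adgre1* (-0.61) and *Itgam* (-1.11). With soluble OVA in PP, the B cell markers *Cd79a* (-0.39) and *Cd22* (-0.48), 2 of 6, and the myeloid marker *Lyz2* (-0.41), 1 of 5, were lower than in PBS controls, and of 5 plasma cell markers *Jchain* was higher (0.35) and *Irf4* lower (-1.30). The part of these in the members' differences was not tested. Mitochondrially encoded genes took 9.08% to 9.80% of the counts in the PP libraries of OVA NP–treated mice, above the 4.97% to 7.67% of the other PP libraries and the 2.82% to 3.41% of the spleen. Since these are bulk samples, more cells of a type and more RNA per cell cannot be told apart. The labels call the libraries biological replicates, and the splenic PBS and OVA NP groups came from 3 mice each. The number of mice behind the other groups, and which spleen and PP libraries came from 1 mouse, are not given in the sources used here.

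The genes lie on 5 chromosomes in GRCm38. *Ung* is at chr5:114130386-114139323 (plus strand), *Apex1* at chr14:50924968-50927139 (plus), *Apex2* at chrX:150519519-150589868 (minus), *Msh6* at chr17:87975062-87990892 (plus), *Exo1* at chr1:175880581-175913489 (plus), *Polh* at chr17:46171355-46202645 (minus), and *Rev1* at chr1:38052786-38129801 (minus). RefSeq promoter windows (GRCm38.p6) were found for 5 of the 7, all except *Apex2* and *Exo1*. The 250 bases before the start site are printed for *Apex1*, *Msh6*, and *Polh*, 1 gene from each repair branch, as genes that rose together with OVA in the spleen and so could be read side by side. Capitals mark the E2F-like letters (TTCCCGC or TTCGCGC or TTGCCGC or TTGGCGC), the CCAAT box, and the E-box CACGTG, each searched on both strands with no overlap among the matches found.
*Apex1*, chr14:50924699-50924948, plus strand: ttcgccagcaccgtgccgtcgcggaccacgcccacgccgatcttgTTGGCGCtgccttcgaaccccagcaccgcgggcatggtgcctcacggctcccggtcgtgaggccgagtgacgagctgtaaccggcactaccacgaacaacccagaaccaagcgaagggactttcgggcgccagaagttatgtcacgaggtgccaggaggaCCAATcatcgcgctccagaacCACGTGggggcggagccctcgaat
*Msh6*, chr17:87974800-87975049, plus strand: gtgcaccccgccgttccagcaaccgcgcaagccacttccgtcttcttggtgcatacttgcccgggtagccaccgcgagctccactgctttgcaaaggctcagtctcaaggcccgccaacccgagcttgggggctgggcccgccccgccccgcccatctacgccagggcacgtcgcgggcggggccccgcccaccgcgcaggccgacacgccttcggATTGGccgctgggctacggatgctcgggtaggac
*Polh*, chr17:46202642-46202891, minus strand: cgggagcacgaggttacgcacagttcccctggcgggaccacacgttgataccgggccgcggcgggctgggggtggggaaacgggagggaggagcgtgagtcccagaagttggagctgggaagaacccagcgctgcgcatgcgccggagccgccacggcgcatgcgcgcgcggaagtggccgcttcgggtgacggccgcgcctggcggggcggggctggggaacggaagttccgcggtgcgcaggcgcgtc
*Msh6* past its start site, chr17:87975058-87975080, plus strand: tcccgactTTCCCGCcagcggcg

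The *Apex1* window held all 3 motifs, the *Msh6* window held a CCAAT box on the opposite strand, and the *Polh* window held none. GC content was 64.8%, 70.8%, and 73.2%. E2F-like letters were in 1 of the 5 windows (*Apex1*) against 7.89% of 32851 promoter windows of the same length, CCAAT boxes in 2 (*Apex1* and *Msh6*) against 33.8%, and E-boxes in 2 (*Apex1* and *Rev1*) against 6.02%. In *Msh6* an E2F-like run began 17 bases after the start site, outside the 250-base window, and it is the capitalized part of the short sequence. A match is a description of the letters and not of binding.

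The base excision branch starts with *Ung*, which encodes the uracil-DNA glycosylase. In splenic B cells *Ung* was at 10.2, 12.0, and 11.7 CPM in the PBS controls, 19.7, 16.2, and 18.1 with soluble OVA, and 16.1, 13.5, and 16.1 with OVA NPs. All 6 splenic libraries of OVA-treated mice lay above the 3 of PBS controls. The log2 fold change from PBS was 0.71 ± 0.11 (SE), edgeR adjusted p = 0.000438 for soluble OVA and 0.46 ± 0.12 (SE), edgeR adjusted p = 0.0109 for OVA NPs. The second of these calls was lost when the first PBS library was left out (edgeR adjusted p = 0.0655). In PP the levels were 27.8, 22.9, and 20.3 CPM in PBS controls, 41.7, 35.5, and 32.7 with soluble OVA, and 18.5, 18.4, and 21.7 with OVA NPs. Soluble OVA thus gave the 3 highest libraries of the series for this gene, while the OVA NP and PBS libraries overlapped. *Ung* rose with soluble OVA in PP (0.59 ± 0.13 (SE), edgeR adjusted p = 0.00952), and it was lower with OVA NPs than with soluble OVA (-0.90 ± 0.12 (SE), edgeR adjusted p = 0.00107).

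*Apex1* encodes the main abasic-site endonuclease of most cells. Its splenic levels were 31.6, 30.5, and 30.7 CPM in PBS controls, 46.1, 40.5, and 41.6 with soluble OVA, and 39.6, 40.2, and 38.0 with OVA NPs, so that both treated groups lay above the controls. The rise was 0.50 ± 0.072 (SE), edgeR adjusted p = 0.000270 with soluble OVA and 0.37 ± 0.068 (SE), edgeR adjusted p = 0.00141 with OVA NPs. In PP the levels were 34.9, 29.3, and 33.6 CPM in PBS controls, 42.4, 41.2, and 40.1 with soluble OVA, and 24.8, 26.9, and 30.6 with OVA NPs. The OVA NP group had the lowest mean of the 6 groups for this gene, at 27.4 ± 2.95 CPM (SD, n = 3). *Apex1* rose with soluble OVA in PP (0.30 ± 0.088 (SE), edgeR adjusted p = 0.0334), a call that was lost in 5 of 14 alternatives, including the fits without the second PBS library or without either the first or the second soluble OVA library (edgeR adjusted p = 0.0564 to 0.0598). It was lower with OVA NPs than with soluble OVA (-0.58 ± 0.098 (SE), edgeR adjusted p = 0.00276). Of the exonic bases of *Apex1*, 61.7% are shared with *Pip4p1* on the opposite strand, and whether counting used strand is not given in the sources used here. *Pip4p1*, named after its values were seen, moved the other way with soluble OVA in PP (-0.48 ± 0.091 (SE), edgeR adjusted p = 0.00437) and was at -0.057 ± 0.050 (SE) for OVA NPs in the spleen (edgeR adjusted p = 0.472). It was also opposite to *Apex1* for OVA NPs against soluble OVA in PP (0.30 ± 0.098 (SE), edgeR adjusted p = 0.0428). With soluble OVA it was lower in PP than in the spleen (-0.62 ± 0.083 (SE), edgeR adjusted p = 0.000203). *Apex1* had the same sign there (-0.096) but was not called. The part of shared reads in the *Apex1* values was not tested.

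*Apex2* encodes the other abasic-site endonuclease, which is active in germinal center B cells. Its group means spanned the smallest range of the 7. Splenic levels were 11.8, 12.0, and 11.6 CPM in PBS controls, 10.6, 12.6, and 13.0 with soluble OVA, and 11.9, 14.4, and 13.9 with OVA NPs, and the groups overlapped. Neither difference from PBS passed the test, with 95% intervals of -0.19 to 0.32 for soluble OVA and -0.018 to 0.45 for OVA NPs on the log2 scale. In PP it was at 12.3, 10.3, and 13.8 CPM in PBS controls, 17.0, 15.9, and 16.4 with soluble OVA, and 10.7, 13.1, and 13.3 with OVA NPs. The soluble OVA libraries lay above the other 6 PP libraries without overlap, but the difference from PBS did not pass (0.39 ± 0.14 (SE), edgeR adjusted p = 0.0630). It passed in 4 of 14 alternatives, namely without a count filter, with at least 10 counts in every library, with all 18 libraries, and without the third PBS library (edgeR adjusted p = 0.0201 to 0.0498). The difference between OVA NPs and soluble OVA did (-0.40 ± 0.13 (SE), edgeR adjusted p = 0.0462), and 8 of 14 alternatives lost it, with an edgeR or DESeq2 adjusted p of up to 0.109. Among these were the fits without any 1 of the 3 soluble OVA libraries and without the first OVA NP library. *Apex2* had 142 to 471 counts per library, the fewest of the 7 in its lowest library.

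In the mismatch branch, *Msh6* encodes the subunit that recognizes base mismatches, and it had the highest CPM of the 7 genes in every group. Splenic levels were 79.5, 86.0, and 81.9 CPM in PBS controls, 118, 100.4, and 119.9 with soluble OVA, and 105, 108, and 108 with OVA NPs. The controls were the 3 lowest libraries. *Msh6* rose by 0.48 ± 0.066 (SE), edgeR adjusted p = 0.000176 with soluble OVA and by 0.40 ± 0.052 (SE), edgeR adjusted p = 0.000101 with OVA NPs. In PP the levels were 138, 137, and 113 CPM in PBS controls, 224, 226, and 222 with soluble OVA, and 119, 135, and 136 with OVA NPs. The soluble OVA libraries differed among themselves by only a few CPM and stood far above the rest. *Msh6* rose with soluble OVA (0.75 ± 0.087 (SE), edgeR adjusted p = 0.000357) and was lower with OVA NPs than with soluble OVA (-0.78 ± 0.078 (SE), edgeR adjusted p = 0.000369), while OVA NPs and PBS differed by -0.014 with a 95% interval of -0.23 to 0.20.

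*Exo1* encodes the exonuclease that opens a gap at the mismatch, and it showed the largest log2 fold changes of the 7 with OVA NPs in the spleen and with soluble OVA in PP. In the spleen it was at 7.91, 6.94, and 7.55 CPM in PBS controls, 12.7, 13.4, and 14.2 with soluble OVA, and 18.7, 14.9, and 12.6 with OVA NPs. Every OVA-treated library exceeded every control, and the OVA NP libraries were the most spread. *Exo1* rose by 0.88 ± 0.12 (SE), edgeR adjusted p = 0.000177 with soluble OVA and by 1.08 ± 0.15 (SE), edgeR adjusted p = 0.000230 with OVA NPs. In PP it was at 14.2, 13.9, and 12.4 CPM in PBS controls, 30.3, 32.9, and 32.4 with soluble OVA, and 10.3, 12.0, and 14.8 with OVA NPs. The soluble OVA libraries lay clear of the other 6. The rise with soluble OVA was 1.20 ± 0.10 (SE), edgeR adjusted p = 0.000107, and the difference of OVA NPs from soluble OVA was -1.36 ± 0.14 (SE), edgeR adjusted p = 0.000374.

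Of the translesion polymerases, *Polh* encodes Pol eta, the enzyme credited with mutations at A:T pairs. It spanned the widest range of the 7, from a mean of 24.8 ± 3.13 CPM in the spleen of PBS controls to 161 ± 7.82 in PP with soluble OVA (SD, n = 3), a 6.48-fold ratio. Splenic levels were 21.8, 24.6, and 28.1 CPM in PBS controls, 57.1, 47.3, and 48.5 with soluble OVA, and 45.8, 44.3, and 45.1 with OVA NPs, and neither treated group reached down to the controls. The rise was 1.07 ± 0.096 (SE), edgeR adjusted p = 3.46e-06 with soluble OVA and 0.89 ± 0.086 (SE), edgeR adjusted p = 9.86e-06 with OVA NPs. In PP the levels were 93.9, 82.3, and 70.2 CPM in PBS controls, 167, 163, and 152 with soluble OVA, and 58.4, 83.2, and 84.3 with OVA NPs. The first OVA NP library was the lowest of the 9, and the other OVA NP libraries lay within the range of the controls. *Polh* rose with soluble OVA in PP (0.93 ± 0.10 (SE), edgeR adjusted p = 0.000276) and was lower with OVA NPs than with soluble OVA (-1.08 ± 0.14 (SE), edgeR adjusted p = 0.00123).

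*Rev1* encodes the deoxycytidyl transferase that inserts C opposite abasic sites and also serves as a platform for the other translesion polymerases. Its splenic levels were 62.9, 59.9, and 63.3 CPM in PBS controls, 74.1, 66.8, and 76.1 with soluble OVA, and 65.1, 75.0, and 74.1 with OVA NPs. The treated groups exceeded the controls by a small margin. With soluble OVA the difference passed by a narrow margin (0.26 ± 0.063 (SE), edgeR adjusted p = 0.0104) and was lost in 5 of 14 alternatives, 1 of them without the second PBS library (log2 fold change 0.23, edgeR adjusted p = 0.0643) and 1 without the third soluble OVA library (0.23, under the fold cutoff). With OVA NPs it was 0.23 ± 0.060 (SE), edgeR adjusted p = 0.0123, under the log2 cutoff of 0.25, and it passed without the first OVA NP library, at 0.28. In PP the levels were 106, 107, and 101 CPM in PBS controls, 178, 169, and 167 with soluble OVA, and 96.0, 129.6, and 124 with OVA NPs. The soluble OVA libraries were again apart from the others. *Rev1* rose with soluble OVA (0.67 ± 0.063 (SE), edgeR adjusted p = 0.000133) and was lower with OVA NPs than with soluble OVA (-0.55 ± 0.11 (SE), edgeR adjusted p = 0.00675). Of its exonic bases, 26.6% are shared with *Eif5b* on the opposite strand. *Eif5b*, also named after its values were seen, was at 0.21 ± 0.096 (SE) with soluble OVA in PP (edgeR adjusted p = 0.139) and 0.28 ± 0.099 (SE) with soluble OVA in the spleen (edgeR adjusted p = 0.0654), the latter near the 0.26 of *Rev1*. It was higher in PP than in the spleen in PBS controls (0.32 ± 0.077 (SE), edgeR adjusted p = 0.00626) and with OVA NPs (0.30 ± 0.079 (SE), edgeR adjusted p = 0.0125), the same direction as *Rev1*.

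**Figure D1:**
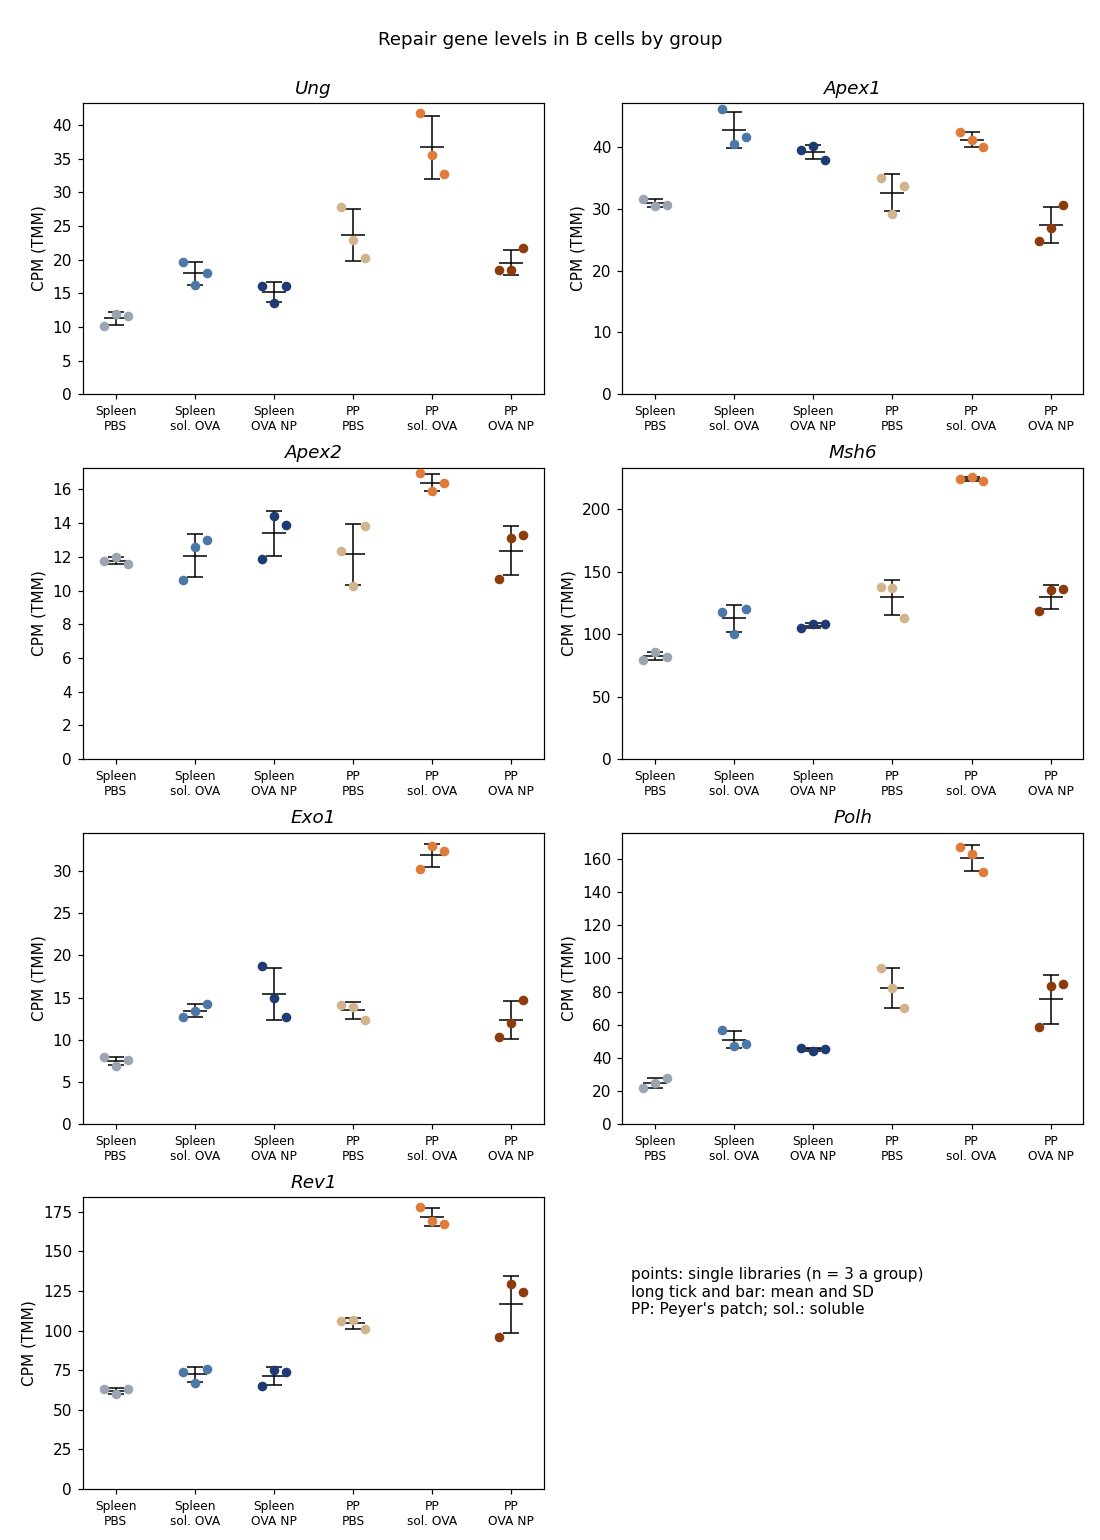
Level of each gene, in CPM scaled by TMM on a linear axis from 0, in each of the 18 libraries, grouped by tissue and treatment. Points are libraries, and the long tick and bar are the mean and SD of 3. The PP soluble OVA libraries are the highest for every gene except *Apex1*, whose highest library (46.1 CPM) is from the spleen with soluble OVA.

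Counted over the genes, OVA NPs against PBS in the spleen gave 5 of 7 members called higher and 0 lower. To be called, a gene needed an edgeR adjusted p below 0.05 together with a log2 fold change beyond 0.25 in either direction. Of all 14200 genes tested in this comparison, 8.60% were called higher. The groups did not overlap for 6 of the 7, all of them higher, against 16.4% of all genes. Soluble OVA against PBS in the spleen gave 6 of 7 called higher, against 10.5% of all genes. These comparisons share the PBS libraries and are therefore not independent. The median log2 fold change of the 7 was 0.40 with OVA NPs and 0.50 with soluble OVA, and that of all genes tested was within 0.01 of 0 in both.

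Between OVA NPs and soluble OVA in the spleen, 0 of the 7 were called, against 0.238% of all genes in either direction. Before adjustment, 2 of the 7 had an edgeR p under 0.05, against 8.66% of all genes, namely *Ung* (-0.24, 95% interval -0.48 to -0.0018) and *Polh* (-0.18, -0.35 to -0.013), both lower with OVA NPs. DESeq2 called 0 of the 7 as well, and 105 of 13840 genes in all. The groups did not overlap for *Ung*, *Apex1*, and *Polh*, against 12.8% of all genes. For *Exo1* the interval was -0.12 to 0.52.

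In PP, OVA NPs against PBS gave 0 of 7 called by edgeR, and edgeR called 0 of 15798 genes in all, 0%. DESeq2 called 0 of the 7 and 149 genes in all. At an unadjusted edgeR p under 0.05 there was 1 of the 7, *Apex1* (-0.27, 95% interval -0.52 to -0.022), and 1573 genes in all (9.96%). None of the 7 had groups without overlap, against 17.1% of all genes. The intervals were -0.60 to 0.0087 for *Ung*, -0.36 to 0.37 for *Apex2*, -0.50 to 0.21 for *Exo1*, -0.52 to 0.23 for *Polh*, and -0.11 to 0.39 for *Rev1*. The spleen estimates of *Ung*, *Apex1*, *Msh6*, *Exo1*, and *Polh* lay above the PP intervals, while those of *Apex2* and *Rev1* lay inside them. This leaves out the error of the spleen estimates and is not a test of a tissue difference. The direct test is given below, and *Msh6* did not pass it (edgeR adjusted p = 0.0521).

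Soluble OVA against PBS in PP gave 6 of 7 called higher, against 13.5% of all genes, and the groups did not overlap for any of the 7, all higher, against 23.8% of all genes. OVA NPs against soluble OVA in PP gave 7 of 7 called lower, against 16.3%. The comparisons share the soluble OVA libraries. Over the alternatives the counts ran from 5 to 7 and from 6 to 7. The PP libraries of OVA NP–treated mice were also those with the highest mitochondrial share, 9.08% to 9.80%, and 5 of 7 T cell markers were called higher and 1 lower with OVA NPs than with soluble OVA (summed 136 to 143 against 161 to 185 CPM, with *Cd3e* at no more than 5.99 CPM). *Lck* made up most of this sum, at means of 115 CPM with OVA NPs and 161 with soluble OVA. Every other T cell marker had the higher mean with OVA NPs, such as *Cd3e* at 5.19 against 1.59 CPM. Of 5 tested myeloid markers, 2 were higher (summed 148 to 242 against 94.8 to 109 CPM). So were 1 of 5 epithelial markers and the 1 erythroid marker tested, while 8 of 9 germinal center markers were lower. Of all genes, 13.8% were called higher in this comparison and 16.3% lower. The part of these in the result was not tested.

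**Figure D2:**
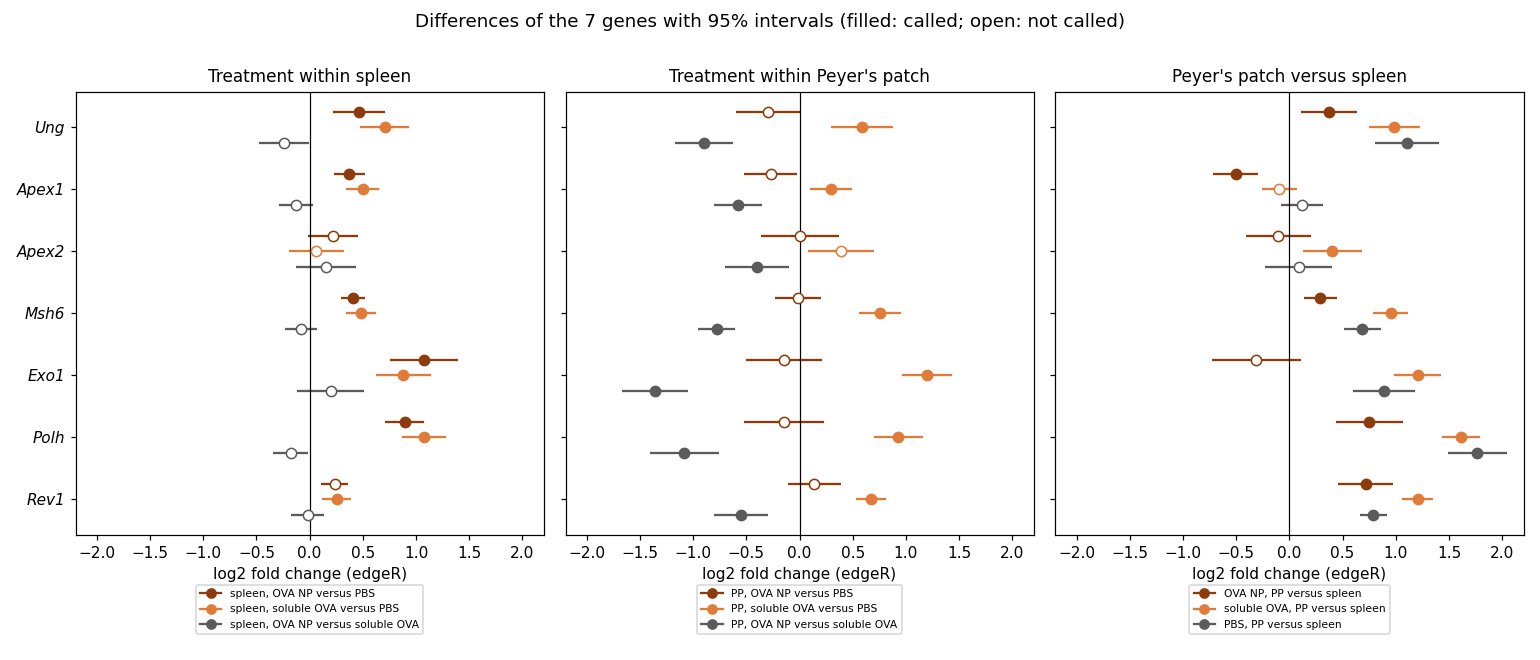
Log2 fold change of each gene with its 95% interval (edgeR) in 9 comparisons, 3 within the spleen, 3 within PP, and 3 between the tissues. Filled points passed both cutoffs and open points did not. In PP the intervals of OVA NPs against PBS reach or nearly reach 0 for all 7 genes, and those of OVA NPs against soluble OVA lie below 0.

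PP B cells were compared with splenic B cells under the same treatment. In PBS controls 5 of the 7 were called higher in PP, against 25.5% of all genes. The largest difference was in *Polh* (1.76 ± 0.12 (SE), edgeR adjusted p = 6.36e-06), followed by *Ung* (1.11), *Exo1* (0.89), *Rev1* (0.79), and *Msh6* (0.68). *Apex1* and *Apex2* did not pass, with intervals of -0.080 to 0.31 and -0.23 to 0.40. With soluble OVA, 6 of 7 were called higher, against 26.7%, and *Apex1* was again not called (-0.096, -0.26 to 0.071). *Apex2* was called (0.40 ± 0.12 (SE), edgeR adjusted p = 0.0204), and lost the call without the first splenic soluble OVA library or the third PP one. PP libraries of PBS controls also had all 9 germinal center, 4 of 5 tested plasma cell, all 5 epithelial, all 4 tested T cell, and all 3 NK cell markers called higher. In the same comparison 5 of 6 B cell, 4 of 7 myeloid, and all 3 tested erythroid markers were called lower. The sum of the 7 T cell markers was 145 to 166 CPM in PP and 73.9 to 83.3 in the spleen. Most of it was *Lck*, at means of 146 CPM in PP and 76.5 in the spleen, while *Cd3e* was at 2.82 and 0.944. Their part in the tissue differences was not tested.

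With OVA NPs the tissue difference was smaller for most members. *Polh* (0.75 ± 0.14 (SE), edgeR adjusted p = 0.00302), *Rev1* (0.72 ± 0.11 (SE), edgeR adjusted p = 0.00131), *Ung* (0.37 ± 0.12 (SE), edgeR adjusted p = 0.0314), and *Msh6* (0.29 ± 0.068 (SE), edgeR adjusted p = 0.00748) were higher in PP, 4 of 7 against 22.0% of all genes. *Apex1* was lower in PP (-0.51 ± 0.094 (SE), edgeR adjusted p = 0.00220), 1 of 7 against 15.1%. *Exo1* was at -0.31 (95% interval -0.73 to 0.11) and did not pass. Scaling by total counts in place of TMM moved the median of all genes in this comparison from 0.0021 to -0.096 and left 3 calls, *Apex1*, *Polh*, and *Rev1*. *Ung* also lost its call without the second or the third splenic library or the third PP library (edgeR adjusted p = 0.0635 to 0.133).

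Whether the response to treatment differed between the tissues was tested directly, with a tissue-by-treatment term fitted to 12 libraries for each treatment. For OVA NPs, 4 of 7 had a smaller change in PP than in the spleen, against 3.54% of all genes in this direction. The difference between the 2 log2 fold changes was -1.21 ± 0.23 (SE), edgeR adjusted p = 0.0117 for *Exo1*, -1.02 ± 0.20 (SE), edgeR adjusted p = 0.0168 for *Polh*, -0.75 ± 0.18 (SE), edgeR adjusted p = 0.0306 for *Ung*, and -0.63 ± 0.13 (SE), edgeR adjusted p = 0.0136 for *Apex1*. *Msh6* came close (-0.40 ± 0.11 (SE), edgeR adjusted p = 0.0521), and *Rev1* (-0.082, -0.36 to 0.20) and *Apex2* (-0.20, -0.61 to 0.21) did not pass. *Exo1* and *Apex1* passed in all 19 alternatives. *Ung* and *Polh* depended on single libraries, since only 2 calls were left without the first splenic PBS library, the second splenic PBS library, or the first splenic OVA NP library. *Ung* alone lost its call without the third splenic PBS library, the third splenic OVA NP library, the first PP PBS library, or the first or second PP OVA NP library. For soluble OVA, 1 of 7 passed, against 6.84% of all genes in either direction and 1.77% in the direction seen. This was *Rev1*, whose rise was larger in PP than in the spleen (0.42 ± 0.085 (SE), edgeR adjusted p = 0.00798). *Rev1* passed in all 19 alternatives.

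**Figure D3:**
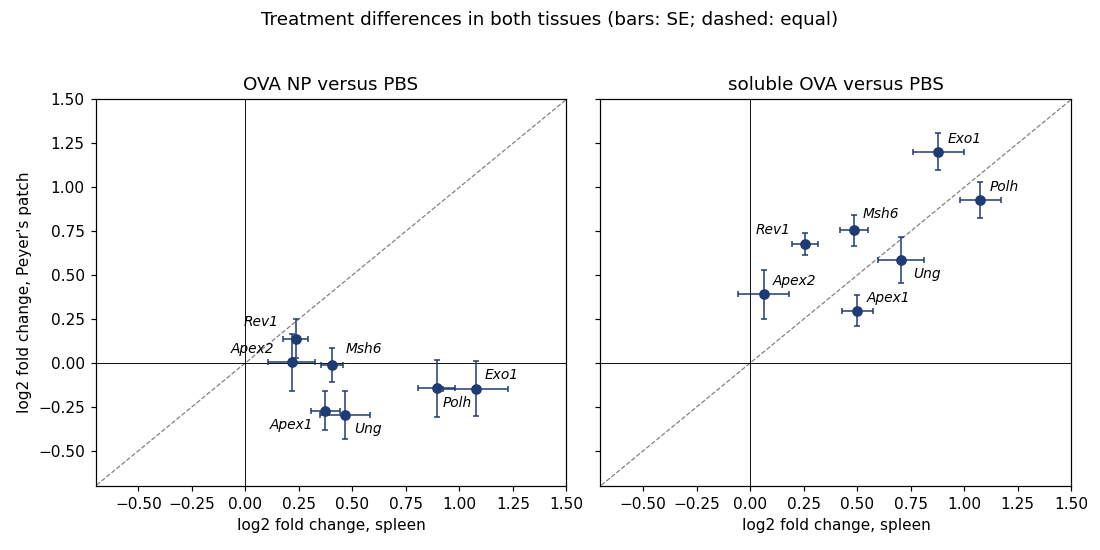
Log2 fold change from PBS in the spleen (horizontal) and in PP (vertical) for each gene, with SE bars, for OVA NPs (left) and soluble OVA (right), and a dashed line where both are equal. With OVA NPs all 7 points lie below the line, and with soluble OVA *Rev1* is at 0.26 in the spleen and 0.67 in PP.

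The levels had a different order from gene to gene. *Ung*, *Msh6*, *Exo1*, *Polh*, *Rev1*, and *Apex2* had their lowest mean in the spleen of PBS controls and their highest in PP with soluble OVA, with a ratio from 1.39 for *Apex2* to 6.48 for *Polh*. *Apex1* had its lowest mean in PP with OVA NPs and its highest in the spleen with soluble OVA, a ratio of 1.56. In the order of means, the splenic PBS group did not overlap the next group, splenic OVA NPs for *Ung*, *Msh6*, *Polh*, and *Rev1* and PP OVA NPs for *Exo1*. Splenic OVA NPs and splenic soluble OVA, the next neighbours, were also without overlap for *Ung* and *Polh*, and a further gap lay between the splenic groups and the PP groups for *Polh* and *Rev1*. For *Apex1* the only gap was between PP PBS and splenic OVA NPs, and the 5 lower groups of *Apex2* overlapped each with the next. For all genes but *Apex1* the PP soluble OVA group did not overlap the group below it. The PP PBS and PP OVA NP groups stood next to each other and overlapped for *Ung*, *Apex2*, *Msh6*, *Polh*, and *Rev1*.

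Compared per kilobase of exon, the members changed places. *Msh6* (19.0 CPM per kb) and *Apex1* (21.8) had the highest mean levels in the spleen of PBS controls, followed by *Rev1* (10.1), *Polh* (4.17), *Ung* (2.06), *Apex2* (1.35), and *Exo1* (0.887). In PP with soluble OVA the means were 51.6 for *Msh6*, 29.0 for *Apex1*, 27.8 for *Rev1*, and 27.0 for *Polh*. *Ung* thus stood well below *Apex1*, the next enzyme of the pathway. The ratio of *Ung* to *Apex1* per kb, a description with no test, was 0.0949 ± 0.00982 (SD, n = 3) in the spleen of PBS controls, 0.109 ± 0.00482 with soluble OVA, and 0.101 ± 0.0119 with OVA NPs. In PP it was 0.189 ± 0.0280, 0.231 ± 0.0224, and 0.186 ± 0.00803, so that every PP library was above every splenic library. The lengths merge all annotated exons, and transcript usage was not measured.

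The other genes of the same pathways were counted from lists drawn up by function. In the spleen with OVA NPs, 6 of 16 tested base excision genes were called higher and 2 lower, 7 of 17 mismatch repair genes higher and 1 lower, 2 of 14 translesion genes higher, 2 of 20 end joining genes higher and 1 lower, and 5 of 16 genes of AID and its cofactors higher, where 8.60% of all genes were higher and 6.35% lower. The list medians were 0.10, 0.20, 0.047, 0.012, and 0.20 on the log2 scale, against 0.00062 for all genes. Among the base excision genes, the glycosylases *Neil3* (1.58) and *Neil1* (1.13) and the abasic-site shield *Hmces* (1.24) rose, and the glycosylases *Smug1* (-0.32), which also removes uracil, and *Mpg* (-0.38) fell. Among the mismatch repair genes, those that rose most also serve replication, namely the clamp loader subunit *Rfc4* (0.77), the ligase *Lig1* (0.74), and the clamp *Pcna* (0.68), and *Mlh3* fell (-0.39). The translesion and end joining counts were near the share of all genes. *Polq* (0.63) and *Ube2a* (0.26) rose in the translesion list. In the end joining list *Lig4* (0.39) and *Nbn* (0.29) rose and *Shld2*, a subunit of the shieldin complex that limits end resection, fell (-0.41). The AID cofactor *Dnaja1*, a chaperone, rose by 0.82 and the topoisomerase *Top1* by 0.59.

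Replication and division genes moved with most of the members. In the spleen with OVA NPs, 22 of 26 S phase genes and 16 of 16 mitosis genes were called higher, with list medians of 0.68 and 1.34, and 7 of 9 germinal center B cell markers were. Examples are *Rrm2* (1.32), *Uhrf1* (1.24), *Mcm10* (1.20), *Mki67* (1.63), *Birc5* (1.48), and *Kif11* (1.48). The summed S phase level was 1156 to 1246 CPM in splenic PBS controls, 1852 to 2065 with soluble OVA, and 1714 to 2096 with OVA NPs, and in PP 2147 to 2638, 4301 to 4804, and 1768 to 2458. The mitosis list ran the same way, from 476 to 558 CPM in splenic PBS controls to 4467 to 4829 in PP with soluble OVA. In the spleen both OVA groups lay above the controls in these sums, and in PP the soluble OVA group lay above the other PP groups. The same was the case for *Ung*, *Apex1*, *Msh6*, *Exo1*, *Polh*, and *Rev1*. For *Apex2* it held in PP only, as its splenic groups overlapped. The part of cell division or germinal center content in the members' differences was not tested.

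With soluble OVA in PP, 13 of 17 mismatch repair genes, 6 of 17 base excision genes, 4 of 14 translesion genes, 6 of 20 end joining genes, 24 of 26 S phase genes, 16 of 16 mitosis genes, and 8 of 9 germinal center markers were called higher, against 13.5% of all genes. Called lower were 1 base excision, 1 translesion, and 1 end joining gene, against 13.9% of all genes. With OVA NPs against PBS in PP, 0 genes of any of these lists were called by edgeR, and the S phase median was -0.16. For the interaction of tissue and OVA NPs, 17 of 26 S phase genes, 15 of 16 mitosis genes, 6 of 17 mismatch repair genes, 4 of 17 base excision genes, and 8 of 9 germinal center markers had a smaller change in PP, against 3.54% of all genes, and 0 of 14 translesion and 0 of 20 end joining genes did.

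**Figure D4:**
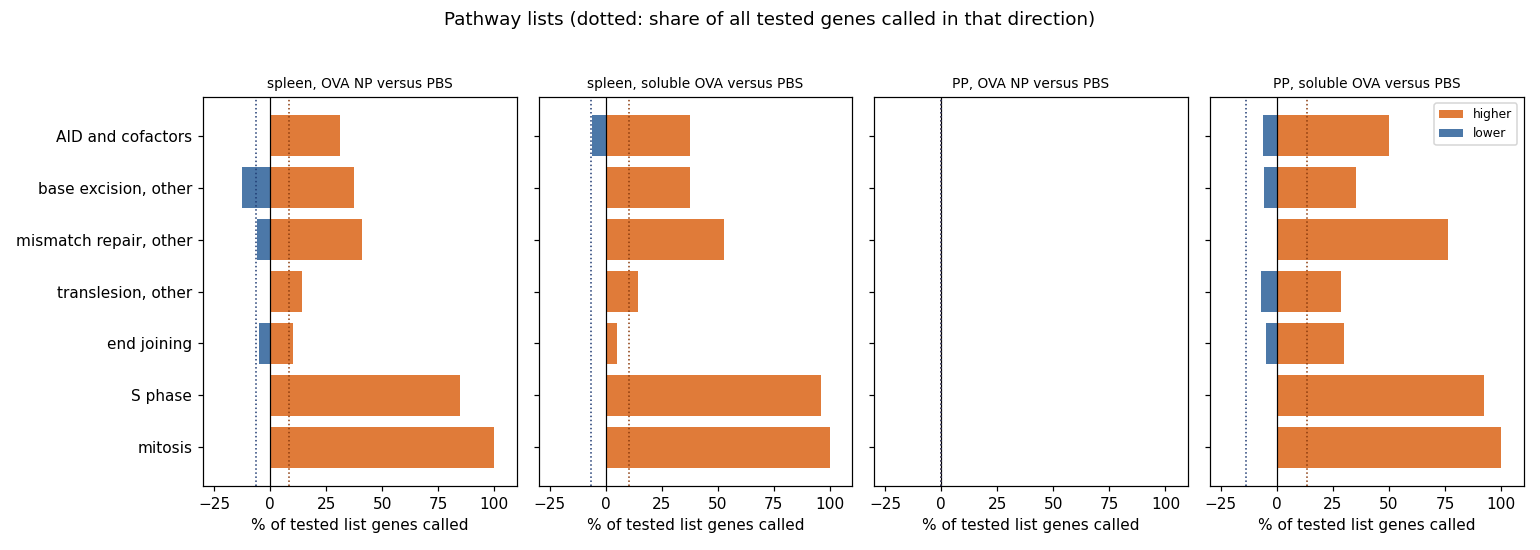
Share of the tested genes of each pathway list called higher (right of 0) or lower (left of 0) against PBS, in percent, by tissue and treatment. Dotted lines give the share of all tested genes called in that direction, such as 8.60% higher for OVA NPs in the spleen. S phase and mitosis lists stand highest in 3 of the panels, and the panel of OVA NPs in PP is empty because 0 genes were called there.

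Between the tissues in PBS controls, 9 of 17 base excision genes were called higher in PP and 2 lower, 10 of 17 mismatch repair genes higher and 1 lower, 4 of 14 translesion genes higher and 3 lower, 3 of 20 end joining genes higher and 4 lower, and 24 of 26 S phase genes higher. Of all genes, 25.5% were higher and 20.1% lower, so that the translesion and end joining counts were near the background. *Neil1* (2.95) and *Hmces* (2.74) had log2 differences above the 1.76 of *Polh*, the largest among the 7 members. *Neil2* was higher as well (2.76) but stood at 0.701 CPM in PP and 0.104 in the spleen. *Smug1* (-0.76) and *Nthl1* (-0.71), both glycosylases, were lower in PP, opposite to *Ung*. *Lig1* (1.44), *Rfc4* (1.09), and *Rfc5* (0.99) were higher and *Mlh3* (-0.56) lower. In the translesion list *Polq* (0.71), the ubiquitin ligase *Rad18* (0.38), and the Pol zeta catalytic subunit *Rev3l* (0.34) were higher, and *Shprh* (-0.68), *Hltf* (-0.41), and the polymerase *Polk* (-0.33) were lower. *Lig4* (0.80) and *Shld3* (0.79) were higher and *Prkdc* (-0.49) and *Shld2* (-0.47) lower in the end joining list. Of the AID cofactors, *Top1* (1.16) and the replication protein *Rpa1* (0.67) were higher.

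Over the 9 libraries of each tissue, which share preparation and treatment groups, the members' log2 levels varied together to different degrees, and the following Pearson correlations are descriptions. *Msh6* and *Polh* had r = 0.94 in the spleen and 0.98 in PP, and *Msh6* and *Exo1* 0.82 and 0.98. *Apex2* was least like the others in the spleen, with r from 0.0086 with *Ung* to 0.46 with *Rev1*, and had 0.74 to 0.87 in PP. Of 12005 genes ranked by the smaller of the 2 within-tissue correlations, those nearest to *Polh* were *Pclaf*, *Hmces*, and *Phf19* (r = 0.99 in both tissues for each). *Exo1* was nearest to *Rad54l*, *Pola1*, and *Aspm* (0.98 in both tissues for each). *Msh6* was nearest to *Mtf2*, *Azin1*, and *Phf6*, *Ung* to *Vcp*, *Nudt21*, and *Rfc2*, and *Apex1* to *Cenpm*, *Tuba1b*, and *Psmd2*, with r from 0.95 to 0.99. *Rev1* was nearest to *Ints11*, *C2cd2l*, and *Ints7*, at 0.91 to 0.94, and *Apex2* to *Gabpa*, *Tecpr2*, and *Bicra*, at 0.81 to 0.89. The nearest genes of *Apex2* and *Rev1* were therefore less close than those of the other members.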

How the data were processed

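Bulk RNA-Seq was performed by the authors on poly(A) RNA of B cells obtained by magnetic negative selection, in 18 libraries (6 groups of 3). Per the labels and the methods of the study, the authors trimmed reads with Cutadapt 2.3, aligned them to GRCm38 with STAR 2.7.8a, and estimated gene counts with RSEM 1.3.3. The deposited values are these expected counts for 55491 genes, not normalized, and they were rounded to whole numbers before use. RSEM divides reads shared by several genes, and strandedness is not given in the sources used here. The soluble OVA groups come from the labels.

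Counts were tested with edgeR 4.0.16 in R 4.3.3 (filterByExpr with a minimum count of 10 and total of 15, TMM, robust quasi-likelihood F test) on the libraries of the groups compared, with Benjamini-Hochberg adjustment over all genes tested. DESeq2 1.42.0 was an alternative. For the tissue-by-treatment term the adjusted p alone (below 0.05) made a call. CPM used TMM factors over all 18 libraries, correlations used a prior count of 2, and kilobases are merged GENCODE vM21 exons. A level of 3 counts, the most that a count of 0 allows, covers counting error only. Intervals are 95% intervals of the fit. The edgeR test and DESeq2 were tried on simulated counts for some of the comparisons, and edgeR also for the tissue-by-treatment term of OVA NPs. Only a single size of change was simulated, larger than most of the members' differences from PBS. The remaining steps were not tried on simulated data. Same-numbered libraries were not paired, since residual correlations over 9 comparisons ran from -0.382 to 0.237 and in 0 comparisons was every pair above 0.1. The 18 replicate pairs differed beyond counting error (chi-square per gene 4.72 to 41.3).

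The 7 genes, the 7 pathway lists, the marker lists, and the tests were chosen with earlier results of these data known. From each pathway list, up to 3 genes per direction were named by size among those called without overlap in the spleen (OVA NP against PBS) and between tissues (PBS), and the 3 genes most like each member were named. Some genes that this rule chose are not reported here. Alternatives were DESeq2, its size factors in edgeR, total-count scaling, keeping all genes with counts, a floor of 10 counts per library, fits to all 18 or to the 9 libraries of a tissue, a replicate block, and leaving out each library. The submitters' notes also list FastQC 0.11.8 and MultiQC 1.7.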

Additional observations from a re-analysis of the deposited data

Results flagged for a closer look

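The change with OVA NPs differed between the tissues for 4 of the 7 genes, by a test of the difference itself in 12 libraries, against 3.54% of all genes in this direction. The difference (PP minus spleen, log2 scale) was -0.75 for *Ung*, -0.63 for *Apex1*, -1.21 for *Exo1*, and -1.02 for *Polh*, with edgeR adjusted p-values of 0.0306, 0.0136, 0.0117, and 0.0168. *Ung* lost this call in 9 of 19 alternatives and *Polh* in 4 of 19. In the spleen these genes rose with OVA NPs. In PP their log2 fold changes from PBS were between -0.30 and -0.14, with 0 calls. There edgeR called 0 of all 15798 genes tested. The summed S phase level was 1156 to 1246 CPM with PBS and 1714 to 2096 CPM with OVA NPs in the spleen, and 2147 to 2638 and 1768 to 2458 CPM in PP. In the same test 17 of 26 S phase genes (list median -0.85) and 8 of 9 germinal center markers had a smaller change in PP, and mitochondrial genes took 9.08% to 9.80% of counts in the PP libraries of that group. Their part in the difference was not tested.

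The change with soluble OVA differed between the tissues for 1 of the 7 genes, *Rev1*, in the same test. It rose more in PP than in the spleen by 0.42 (edgeR adjusted p = 0.00798). Of all genes, 6.84% were called in either direction and 1.77% in this direction. Groups of 3 libraries were too small for a search for single outlying samples.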

How the results depend on the processing

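Of 1127 recomputed values of single genes, 1061 kept their direction and their side of the cutoffs, 41 lost a call, 9 gained one, and 16 changed sign, all of these 16 in differences that had not passed the test. In PP with OVA NPs against PBS, *Apex2* was -0.015 with total-count scaling and -0.0071 with all 18 libraries, and *Msh6* was 0.0060 without a count filter. Leaving out 1 library at a time gave ranges that crossed 0 for *Apex2* (-0.099 to 0.11), *Msh6* (-0.099 to 0.050), and *Polh* (-0.24 to 0.011) in this comparison, for *Rev1* between OVA NPs and soluble OVA in the spleen (-0.053 to 0.032), for *Apex2* between the tissues in PBS controls (-0.025 to 0.19), for *Rev1* in the tissue dependence of OVA NPs (-0.13 to 0.057), and for *Ung* in that of soluble OVA (-0.21 to 0.028).

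The number of the 7 genes called stayed within 1.5 times the main count in the other settings, with these exceptions. Total-count scaling left 3 calls in place of 5 between the tissues with OVA NPs. For the tissue dependence of OVA NPs, which had 4 calls, leaving out 1 library gave 2 to 5. In the fit with a replicate block it had 2, as *Ung* (-0.74, edgeR adjusted p = 0.0989) and *Polh* (-1.04, 0.0884) no longer passed. In that fit the block joined same-numbered PBS and OVA NP libraries, from differently treated mice, within each tissue. Spleen and PP libraries were not paired in it. The replicate block gave 5 calls in place of 6 for soluble OVA in PP and 6 in place of 7 for OVA NPs against soluble OVA in PP, and changed no other count of calls. The cause of these changes was not tested. Whether same-numbered spleen and PP libraries came from 1 mouse is not given in the sources used here. For *Msh6* the tissue dependence of OVA NPs passed with DESeq2, total-count scaling, at least 10 counts in every library, and without the third PP PBS library, at an adjusted p of 0.0130 to 0.0297. *Apex2* had the fewest counts, 142 to 471 per library.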
